A study of Mus musculus with 30 samples.

Results

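The mouse Siglec receptors Cd33, Siglech, Siglece, Siglecg, Siglec1 and Cd22 were described with the phosphatases Ptpn6 and Ptpn11, which inhibitory Siglecs recruit. These genes were followed across forebrain tissue and isolated microglia of mice without interleukin-34 (IL-34) or given an antibody against it. The 8 genes were taken by symbol from the deposited count table, which lists 51752 genes, and each symbol matched 1 row. The data comprise 30 RNA libraries from 15 mice. In the genotype experiment, 4 animals heterozygous for Il34 (Het) were compared with 3 Il34 knockout animals (KO), so the control arm also carries an altered Il34 allele. In the antibody experiment, 4 animals given anti-gp120, the control antibody, were compared with 4 animals given anti-IL34, and the labels give no genotype for these animals. Each animal gave 1 library of whole forebrain and 1 library of cells isolated with a CD11b antibody, called microglia below. The labels do not give age, strain, or antibody dose and schedule, and they name no cell-type driver for the deletion.

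Siglecs are cell-surface lectins that bind sialic acids on glycoproteins and glycolipids. Inhibitory members carry an immunoreceptor tyrosine-based inhibitory motif (ITIM) in their cytoplasmic tail, which Src-family kinases phosphorylate and which then binds the phosphatases SHP-1 (Ptpn6) and SHP-2 (Ptpn11). Siglec-H has no such motif and signals through the adaptor DAP12 (Tyrobp), and Siglec-1 (sialoadhesin, CD169) acts mainly as an adhesion receptor of macrophages. IL-34 binds the Csf1r receptor, on which microglia depend. CD33 is known in brain research because its human gene is linked to the risk of Alzheimer's disease.

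All of the receptor genes except Siglec1 lie on chromosome 7 of GRCm38. Cd33 (ENSMUSG00000004609) spans chr7:43524216-43544428 on the minus strand, Siglece (ENSMUSG00000030474) chr7:43651070-43660161 on the minus strand, and Siglecg (ENSMUSG00000030468) chr7:43408204-43418358 on the plus strand. Cd33 is thus 105.9 kb from Siglecg and 106.6 kb from Siglece. Siglech (ENSMUSG00000051504) spans chr7:55768178-55778925 on the plus strand, 12.1 Mb beyond Siglece, and Cd22 (ENSMUSG00000030577) spans chr7:30865402-30880342 on the minus strand. Siglec1 (ENSMUSG00000027322) spans chr2:131069220-131086765, Ptpn6 (ENSMUSG00000004266) chr6:124720707-124738714 and Ptpn11 (ENSMUSG00000043733) chr5:121130533-121191397, all on the minus strand. In GENCODE M21 the spans of Cd22 and Ptpn6 overlap an antisense gene (Gm29439 and Gm20531) and that of Ptpn11 overlaps the provisional gene Gm42930. Strand use in counting is not given in the sources used here, so reads of these partners cannot be told apart.

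The start-site sequences of the members were read from RefSeq promoters of GRCm38.p6 (250 bases before to 50 after a start). Entries were found for 7 of 8 members, all but Siglec1, in 8 windows. The letters GAGGAA, the core of sites bound by the myeloid factor PU.1, were searched on both strands, where the reverse complement reads TTCCTC. The 3 stretches below hold the matches of the receptors that fell, 5′ to 3′ on the gene's strand, with the matches in capitals: Siglece at chr7:43660152-43660261, Siglech at chr7:55768084-55768193 and Cd33 at chr7:43533312-43533421.
Siglece: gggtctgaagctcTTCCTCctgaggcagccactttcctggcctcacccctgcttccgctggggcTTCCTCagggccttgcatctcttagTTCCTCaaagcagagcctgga
Siglech: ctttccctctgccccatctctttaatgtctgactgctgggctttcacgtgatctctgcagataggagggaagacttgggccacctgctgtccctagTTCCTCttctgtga
Cd33: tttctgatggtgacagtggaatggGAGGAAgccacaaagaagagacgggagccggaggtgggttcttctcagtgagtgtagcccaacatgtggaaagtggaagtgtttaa
Siglece held 3 matches, at -87, -36 and -11 from the start, and 0.682% of 32544 promoters in the table held at least 3. Siglech held 1 match at -4 and Cd33 held 1 at -226, against 28.1% of promoters with at least 1. Ptpn11 held 1 match at -150, and 1 of the windows of Siglecg held 2. The windows of Cd22 and Ptpn6 held none of these letters. The core of interferon-stimulated response elements, read as GAAA, any 2 bases and GAAA, was found in 3.45% of promoters, and the form with GGAA in first place in 2.73%. Neither was in the 8 windows searched, none of which is of Siglec1. A match is a description of letters, and the binding of no factor was measured. The RefSeq start used for Cd33 lies inside its GENCODE span.

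Libraries held 15.1 to 75.2 M counts (M for mega). Il34 itself was read at 19.3 to 23.6 counts per M counts (CPM, scaled by the TMM method) in Het forebrain. In KO forebrain it was at 6.81 to 8.79 CPM, so KO libraries kept reads of the gene. In isolates the arms overlapped for Il34, at 5.20 to 10.6 CPM in Het and 5.34 to 7.29 CPM in KO. Nothing in the labels says that libraries were sequenced in batches, and the experiments have separate animals and controls. The isolates held RNA of other brain cells in every arm. The summed level of 6 neuron markers ran from 111 to 432 CPM in Het and from 378 to 642 CPM in KO microglia, and from 178 to 543 CPM (anti-gp120) to 407 to 689 CPM (anti-IL34). The summed level of 6 astrocyte markers had medians of 6737 CPM in Het and 14907 CPM in KO isolates, and of 6504 CPM and 13678 CPM in the antibody arms. These sums move with the arms, and their part in the differences within isolates was not tested.

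In control animals the receptors and Ptpn6 were enriched in the CD11b isolates. Of the 8 members 7 were higher there than in forebrain (40.5% of 19952 genes tested were higher). Their log2 differences ran from 4.85 for Siglecg to 5.75 for Siglece, with 5.10 ± 0.14 (SE, n = 8 animals) for Cd33. This fit took both libraries of an animal as independent, and with the animal as a block 7 members were called as well. Ptpn11 differed by 0.02 ± 0.08, with an adjusted p of 0.809 by edgeR's quasi-likelihood test. All 10 markers of border macrophages and all 10 of neutrophils and monocytes were higher in isolates as well, with median log2 differences of 5.07 and 5.45, so this comparison does not assign a member to microglia. Per kb of exon, Siglech had the highest level in Het microglia, at 170.2 ± 41.3 CPM per kb (SD, n = 4). Cd33 followed at 52.3 ± 12.2 and Ptpn6 at 49.3 ± 10.7 CPM per kb, which do not differ beyond their spread. Ptpn11 at 19.8 ± 1.88 and Siglece at 18.0 ± 3.12 CPM per kb lay within each other's spread as well. Siglec1 came next at 4.74 ± 1.34, then Cd22 at 1.21 ± 0.454 and Siglecg at 0.928 ± 0.277 CPM per kb, whose spreads overlap. In anti-gp120 microglia the order was the same except that Siglece (23.0 ± 5.61) lay above Ptpn11 (18.8 ± 3.39 CPM per kb), again within the spread. The order rests on merged exon length, and whether intronic reads were counted is not given. In the authors' deposited TPM values, which rest on gene spans, both near-ties are apart in Het microglia: Cd33 at 336 to 463 and Ptpn6 at 138 to 177 TPM, and Siglece at 65.1 to 79.1 and Ptpn11 at 37.2 to 59.2 TPM.

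Without IL-34, forebrain held less RNA of Cd33, the myeloid Siglec that in human microglia limits uptake of amyloid, and of Siglech. In Het forebrain Cd33 was at 10.5, 10.6, 9.96 and 10.0 CPM (animals 1, 20, 21 and 23), and in KO forebrain at 3.70, 3.58 and 3.28 CPM (animals 3, 6 and 24). The arms do not overlap, and the KO libraries lie close together. The fitted log2 fold change was -1.53 ± 0.092 (SE), 34.6% of the Het level, with an adjusted p of 2.97e-06. Among 7 members tested 2 were called in this comparison, both lower, against 0.62% of 19343 genes called (0.615% lower). All 3 KO libraries were below all Het libraries for 3 members, Cd33, Siglech and Ptpn6, against 5.14% of genes lower in every library. Oligodendrocyte markers moved with them: 5 of 6 fell in KO forebrain (list median -0.35), and their sum was 5370 to 6405 CPM in Het and 4377 to 4707 CPM in KO. In anti-IL34 forebrain 0 of 6 passed by edgeR. There 0 of 6 had an unadjusted p under 0.05, against 833 of 17143 genes. In isolates 0 of 6 passed and 0 had such a p in either experiment, with list medians of 0.79 (KO) and 0.66 (anti-IL34). Over all genes 5932 of 18185 (KO) and 4559 of 17570 (anti-IL34) had such a p in isolates. The part of these cells in the members' levels was not tested.

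Antibody against IL-34 gave a lower Cd33 level in the forebrain too. Anti-gp120 forebrain had 17.2, 17.4, 17.0 and 14.5 CPM (animals 1, 7, 8 and 15), and anti-IL34 forebrain had 8.33, 6.02, 6.08 and 7.91 CPM (animals 2, 10, 11 and 24). The arms are apart, with animal 15 the lowest control. The log2 fold change was -1.28 ± 0.12, 41.2% of control, with an adjusted p of 0.000429. Among 6 members tested 3 fell and none rose, against 0.717% of 17143 genes called (0.525% lower). The same 3, Cd33, Siglech and Siglece, were below control in every library, against 2.26% of genes. In bulk forebrain, fewer microglia and less RNA per microglial cell cannot be told apart.

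**Figure D1:**
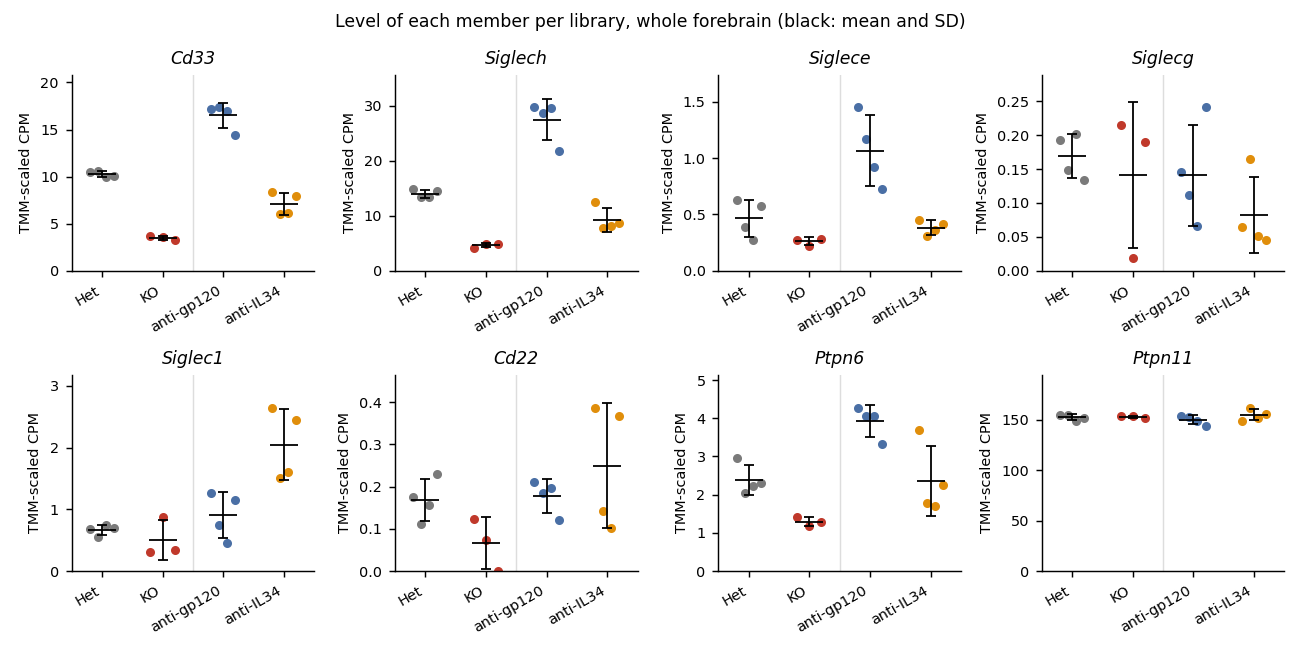
Levels in whole forebrain, in TMM-scaled CPM (y axis, from 0) by arm (x axis), 1 panel per gene; points are libraries and black marks the mean and SD. Cd33 and Siglech of both IL-34-deprived arms lie below every library of their own controls, and Ptpn11 stays near 150 CPM in all arms.

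In microglia Cd33 was at 308.9, 393, 536 and 388 CPM in the Het animals in the same order and at 141, 141 and 156 CPM in KO. The KO range is narrow and the Het range wide. The log2 fold change was -1.47 ± 0.22, 36.1% of the Het level, with an adjusted p of 0.0186. Among 8 members tested 4 were called, all lower, against 5.37% of 18185 genes (5.22% lower). Those 4 and Siglecg were below Het in every library, where 19.7% of genes were, so separated arms are common in this comparison. In the antibody experiment Cd33 was at 508, 415, 492 and 337 CPM in control and at 235, 175, 307 and 203 CPM in anti-IL34 microglia. The arms do not overlap, but the log2 difference of -0.91 ± 0.21 did not pass the test (adjusted p = 0.0759). It passed without the filter on low counts (0.0225), with DESeq2 (0.0029), without sex (0.0356) and in the fit over 15 libraries (0.0219). There 2 of 8 members were called, both lower, against 0.626% of 17570 genes (0.603% lower). Cd33, Siglech and Siglece, 3 of 8, were below control in every library, against 10.7% of genes.

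Siglech, the DAP12-coupled Siglec used as a marker of microglia and of plasmacytoid dendritic cells, fell in all 4 comparisons of arms. In forebrain it was at 14.8, 13.3, 13.3 and 14.5 CPM in Het and at 4.19, 4.82 and 4.80 CPM in KO. The difference was -1.61 ± 0.090 on the log2 scale, 32.8% of the Het level (adjusted p = 1.53e-06). Control antibody forebrain had 29.7, 28.7, 29.5 and 21.8 CPM and anti-IL34 forebrain 12.5, 7.76, 8.19 and 8.60 CPM. Here too the arms are apart, by a log2 fold change of -1.64 ± 0.15, 32.1% of control (adjusted p = 0.000326). The 8 plasmacytoid dendritic cell markers, of which Tcf4, Bcl11a and Pacsin1 are brain genes too, summed to 378 to 533 CPM in Het and 512 to 721 CPM in KO isolates, and to 356 to 606 CPM (anti-gp120) and 509 to 592 CPM (anti-IL34). Of 6 tested 0 passed by edgeR in either microglia comparison, with 1 (deletion) and 2 (antibody) at an unadjusted p under 0.05. Over all genes 5932 of 18185 (deletion) and 4559 of 17570 (antibody) had such a p. Cox6a2 had differences of 1.10 ± 0.32 (adjusted p = 0.0940) and 1.04 ± 0.34 (adjusted p = 0.141). Ly6d was at no more than 0.382 CPM and Ccr9 at no more than 0.773 CPM in any isolate. The part of these genes in the Siglech level was not tested.

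Within isolates Siglech was at 445, 554, 773 and 531 CPM in Het and at 161, 165 and 168 CPM in KO. The log2 fold change was -1.79 ± 0.23, 28.9% of the Het level (adjusted p = 0.0146). Anti-gp120 microglia had 739.7, 598, 669 and 523 CPM and anti-IL34 microglia 260.4, 214, 369 and 233 CPM. The arms are separate, with a log2 fold change of -1.21 ± 0.20, 43.3% of control. This call was at the threshold, with an adjusted p of 0.0491, and was lost with RLE size factors (0.0504).

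Siglece encodes Siglec-E, the main ITIM-bearing Siglec of mouse myeloid cells. Its forebrain level was low, at 0.625, 0.389, 0.269 and 0.577 CPM in Het and 0.277, 0.223 and 0.285 CPM in KO, from 6 to 39 counts per library. The arms overlap, and the log2 difference of -0.88 ± 0.40 did not pass (adjusted p = 0.661). In anti-gp120 forebrain it was at 1.45, 1.17, 0.919 and 0.723 CPM and in anti-IL34 forebrain at 0.452, 0.306, 0.361 and 0.414 CPM. The antibody arms do not overlap and the gene fell by 1.67 ± 0.27 on the log2 scale, to 31.5% of control (adjusted p = 0.0180). When animals were left out in turn the call was kept in 2 of 8 cases (anti-gp120 animal 15 or anti-IL34 animal 2 removed), and the adjusted p reached 0.135 without anti-gp120 animal 1.

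Isolation brought Siglece to levels well above counting noise. Het microglia had 27.9, 33.6, 41.2 and 30.3 CPM and KO microglia 10.8, 12.2 and 9.94 CPM. With no overlap, the log2 fold change was -1.58 ± 0.18, 33.4% of the Het level (adjusted p = 0.0136). Control antibody microglia had 50.5, 39.7, 51.0 and 29.2 CPM and anti-IL34 microglia 16.2, 14.4, 21.7 and 14.0 CPM. Siglece fell there by 1.34 ± 0.22 on the log2 scale, to 39.5% of control, with an adjusted p of 0.0499 that RLE size factors moved to 0.0517.

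**Figure D2:**
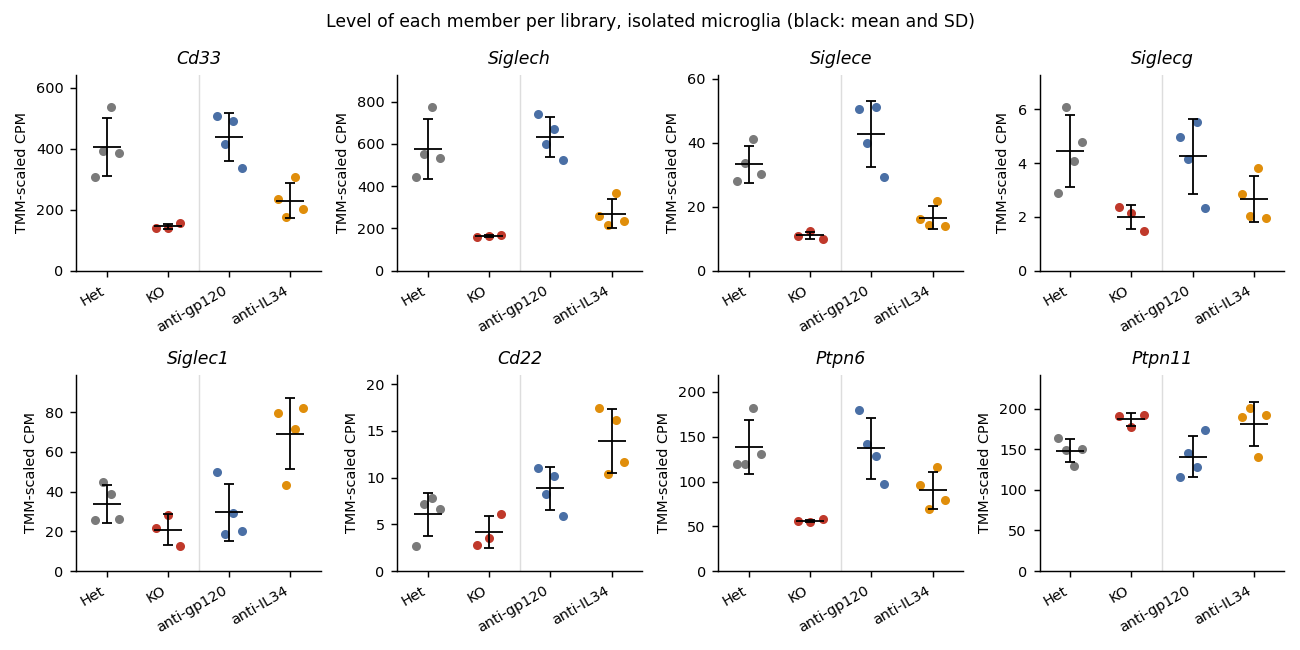
Levels in isolated microglia, in TMM-scaled CPM (y axis, from 0) by arm (x axis), 1 panel per gene; points are libraries and black marks the mean and SD. Cd33, Siglech and Siglece are lower in KO and anti-IL34 than in every control library, while Siglec1 and Cd22 have their highest means in the anti-IL34 arm.

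The microglial calls depended on which animals were in the fit. In the genotype comparison, Cd33, Siglech, Siglece and Ptpn6 stayed called without Het animal 1 or without Het animal 21. They missed the threshold without Het animals 20 or 23 or KO animals 3, 6 or 24, where the number of genes called over the whole table fell to 0. Log2 fold changes moved little in these fits, from -1.56 to -1.31 for Cd33 and from -1.87 to -1.63 for Siglech. In the antibody comparison Siglech and Siglece stayed called without anti-gp120 animal 15 or anti-IL34 animal 11 and in no other such fit, and Cd33 became called in those same fits. Without anti-gp120 animal 15, Siglecg (adjusted p = 0.0140), Ptpn6 (0.0190), Ptpn11 (0.0322) and Siglec1 (0.0495) passed as well, so 7 of 8 members did. Without Het animal 1, Siglecg passed in the genotype comparison (0.0250). The forebrain calls of Cd33 and Siglech held in 7 of 7 and 8 of 8 such fits.

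Siglecg and Cd22 encode inhibitory receptors best known from B cells. Siglecg was at 2.90, 6.08, 4.08 and 4.78 CPM in Het and 2.37, 2.13 and 1.48 CPM in KO microglia. The arms do not overlap, but the log2 difference of -1.15 ± 0.31 missed the threshold (adjusted p = 0.0812). It passed in 4 alternative fits: without the filter (0.0410), with DESeq2 (0.0065), without sex (0.0439) and over 15 libraries (0.0363). Anti-gp120 microglia had 4.96, 4.16, 5.53 and 2.35 CPM and anti-IL34 microglia 2.84, 2.05, 3.82 and 1.97 CPM. These ranges overlap, and the difference of -0.63 ± 0.33 did not pass (adjusted p = 0.235). In forebrain Siglecg had 1 to 12 counts per library, with a log2 difference of -0.41 ± 0.60 in the genotype experiment, and was not tested in the antibody experiment.

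Cd22 was at 2.72, 7.18, 7.79 and 6.63 CPM in Het and 2.78, 3.57 and 6.12 CPM in KO microglia. The arms overlap, with a log2 difference of -0.68 ± 0.39 (adjusted p = 0.254). In the antibody experiment it was at 11.0, 8.26, 10.2 and 5.89 CPM in control and at 17.5, 10.4, 16.2 and 11.7 CPM in anti-IL34 microglia. The means are higher in the anti-IL34 arm, the ranges overlap and the difference of 0.65 ± 0.26 did not pass (adjusted p = 0.175). Forebrain had 0 to 16 counts of Cd22 per library and the gene was not tested there. The B-cell genes Cd79a, Ms4a1 and Pax5 were at no more than 1.34 CPM in any isolate. Cd79b was higher, at 6.98 to 8.91 CPM in Het and 2.68 to 3.64 CPM in KO microglia. In the antibody experiment Cd79b was at 4.94 to 10.3 CPM (anti-gp120) and 2.55 to 5.12 CPM (anti-IL34). The whole list of 8 B-cell genes summed to 144 to 284 CPM in Het and 68.8 to 84.2 CPM in KO microglia, and to 131 to 244 CPM (anti-gp120) and 99.5 to 163 CPM (anti-IL34). Over all isolates Ighm made up 63.5 to 272 CPM of it. In KO microglia, where 5.22% of all genes fell, 2 of 6 tested did, Cd79b by 1.39 ± 0.20 (adjusted p = 0.0165) and Ighm by 1.31 ± 0.28 (adjusted p = 0.0471), and the list median was 0.31. In anti-IL34 microglia 0 of 5 passed by edgeR, with 3 at an unadjusted p under 0.05, against 4559 of 17570 genes. The part of B-cell RNA in the Siglecg and Cd22 levels was not tested.

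Siglec1, a sialic acid receptor of macrophages that type I interferon is known to induce, had a higher mean after anti-IL34 in both tissues. Anti-gp120 microglia had 50.1, 18.7, 29.4 and 20.1 CPM and anti-IL34 microglia 79.4, 43.5, 71.6 and 82.4 CPM. Control animal 1 lies above anti-IL34 animal 10, so the arms overlap. The log2 difference of 1.18 ± 0.35 did not pass (adjusted p = 0.119), but it passed without the filter (0.0423) and with DESeq2 (0.0208). Anti-gp120 forebrain had 1.27, 0.743, 0.459 and 1.15 CPM and anti-IL34 forebrain 2.65, 1.51, 1.6 and 2.44 CPM. These do not overlap (1.03% of genes were above control in every library), and the log2 difference of 1.04 ± 0.30 did not pass (adjusted p = 0.335) except without the filter (0.0034).

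In the genotype experiment the mean of Siglec1 was lower in KO in both tissues. Het microglia had 25.7, 44.8, 39.0 and 26.0 CPM and KO microglia 21.6, 28.2 and 12.7 CPM, with a log2 difference of -0.70 ± 0.34 (adjusted p = 0.186). Het forebrain had 0.673, 0.556, 0.740 and 0.692 CPM and KO forebrain 0.308, 0.872 and 0.333 CPM, with a difference of -0.31 ± 0.36 (adjusted p = 0.888). The contrast of the deletion effect with the antibody effect on Siglec1 was -1.85 ± 0.52 in microglia (unadjusted p = 0.00348, adjusted p = 0.654) and -1.30 ± 0.50 in forebrain (unadjusted p = 0.0175, adjusted p = 0.999874). The experiments were therefore not shown to differ for this gene after adjustment.

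Interferon-response genes moved with Siglec1 between the antibody arms. The summed level of 15 such genes was 521, 183, 190 and 210.5 CPM in anti-gp120 microglia and 1565, 552, 943 and 1376 CPM in anti-IL34 microglia, in the same animal order. Control animal 1, with the highest Siglec1 of its arm, also had the highest sum, and anti-IL34 animal 10 had the lowest of its arm on both measures. Other ranks differed: in the anti-IL34 arm animal 2 had the highest sum and animal 24 the highest Siglec1 (82.4 CPM). Control animal 8 had more Siglec1 than control animal 15 (29.4 against 20.1 CPM) but a lower sum (190 against 210.5 CPM). In anti-IL34 forebrain, where 0.717% of all genes were called, 12 of 15 genes of the list rose, with a median log2 fold change of 2.17 against 0.00 over all genes, and Oasl2 rose by 2.95 ± 0.31 (adjusted p = 0.00121) and Bst2 by 1.89 ± 0.24 (adjusted p = 0.00524). In anti-IL34 microglia, where 0.626% of all genes were called, 1 of 15 passed, Cmpk2 at 1.71 ± 0.27 (adjusted p = 0.0465). In the genotype experiment 0 of 15 passed by edgeR in either tissue, with 1 (forebrain) and 4 (microglia) at an unadjusted p under 0.05. In anti-IL34 microglia 15 of 15 were at that level. Over all genes, 1441 of 19343 in KO forebrain, 5932 of 18185 in KO microglia and 4559 of 17570 in anti-IL34 microglia were. The part of this response in the Siglec1 level was not tested. Markers of border macrophages, another Siglec1-bearing population, summed to 1081 to 1681 CPM in anti-gp120 and 553 to 807 CPM in anti-IL34 microglia. Their sum was lower in KO too, at 1386 to 1574 CPM in Het and 649 to 1201 CPM in KO microglia and at 30.6 to 39.0 and 22.3 to 28.5 CPM in forebrain, and in each of these pairs the arms do not overlap. By gene, 1 of 10 fell in KO microglia, where 5.22% of all genes did: Stab1 by 1.06 ± 0.19 (adjusted p = 0.0281). The list median was -0.16, with values above 0 for Clec10a and Cd209f. In KO forebrain 0 of 9 passed by edgeR, with 3 at an unadjusted p under 0.05 and a median of -0.41. In anti-IL34 microglia 0 of 10 passed, with 3 at that level and a median of -0.49. In anti-IL34 forebrain, where 0.525% of all genes fell, 1 of 8 border macrophage markers did, with a median of -0.55. Their sum there was 35.5 to 44.6 CPM (anti-gp120) and 14.9 to 27.3 CPM (anti-IL34), without overlap. The 10 neutrophil and monocyte markers summed to 62.1 to 347 CPM (median 223) in anti-gp120 and 238 to 550.3 CPM (median 311) in anti-IL34 microglia, with a list median log2 difference of 0.77. Of these 10, 0 passed by edgeR and 1 had an unadjusted p under 0.05. The part of either population in the Siglec1 and Cd22 levels was not tested.

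**Figure D3:**
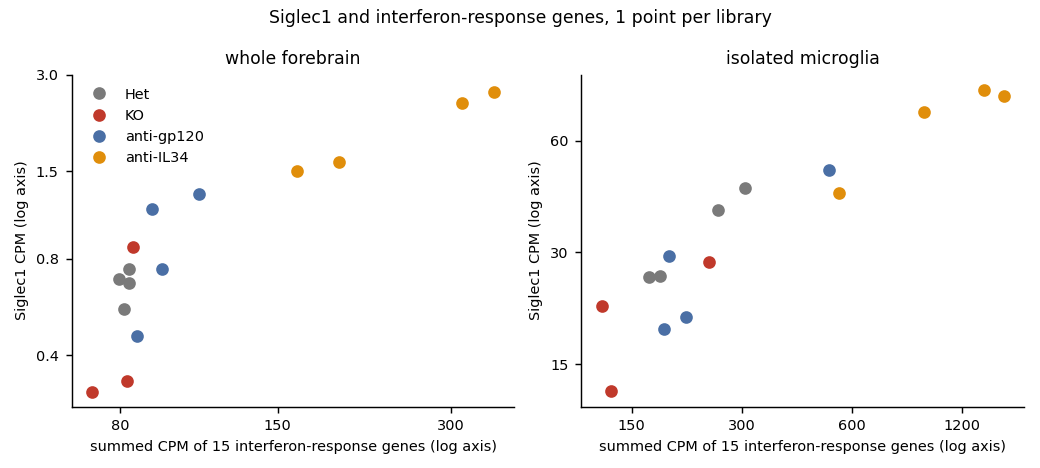
Siglec1 in CPM (y axis, log scale) against the summed CPM of 15 interferon-response genes (x axis, log scale), forebrain left and microglia right, 1 point per library. The 4 anti-IL34 libraries have the highest sums in each tissue, and in microglia control animal 1 (521 CPM) lies next to anti-IL34 animal 10 (552 CPM).

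Ptpn6 encodes SHP-1, the phosphatase of blood cells recruited by ITIMs. In microglia it was at 119.8, 119.9, 183 and 131 CPM in Het and at 55.3, 54.9 and 57.6 CPM in KO. The arms are far apart, and Ptpn6 fell by 1.27 ± 0.18 on the log2 scale, to 41.4% of the Het level (adjusted p = 0.0164). Anti-gp120 microglia had 179.6, 142, 129 and 97.6 CPM and anti-IL34 microglia 96.1, 69.7, 117 and 79.1 CPM. These overlap, and the difference of -0.60 ± 0.23 did not pass (adjusted p = 0.170). In forebrain Ptpn6 was at 2.95, 2.04, 2.22 and 2.31 CPM in Het and at 1.42, 1.19 and 1.28 CPM in KO. Without overlap, its difference of -0.85 ± 0.17 had an adjusted p of 0.0550, which crossed the threshold with DESeq2 (0.0346), without sex (0.0429) and without the filter (0.000636). Control antibody forebrain had 4.28, 4.05, 4.07 and 3.32 CPM and anti-IL34 forebrain 3.68, 1.79, 1.70 and 2.25 CPM, a log2 difference of -0.86 ± 0.22 (adjusted p = 0.197). Anti-IL34 animal 2 overlaps the controls, and without it the adjusted p was 0.0187. With all animals the difference passed without the filter (0.000747), with DESeq2 (0.0411) and in the fit over 15 libraries (0.0324).

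Ptpn11 encodes SHP-2, which most cell types express. Forebrain libraries ran from 144 to 162 CPM in all 4 arms, with log2 differences of 0.00 ± 0.04 for the deletion and 0.03 ± 0.06 for the antibody. The 95% intervals of these differences ran from -0.08 to 0.09 and from -0.09 to 0.16. In microglia Ptpn11 was at 164, 149.7, 129.7 and 150.3 CPM in Het and at 192, 177 and 192 CPM in KO, all KO libraries above all Het libraries, as were 18% of genes. The difference of 0.33 ± 0.13 did not pass (adjusted p = 0.140) except with DESeq2 (0.0386) or without Het animal 1 (0.0388). In the antibody arms it was 0.34 ± 0.18 (adjusted p = 0.247). Ptpn6 and Ptpn11 thus had fitted differences of opposite sign in both microglia comparisons.

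**Figure D4:**
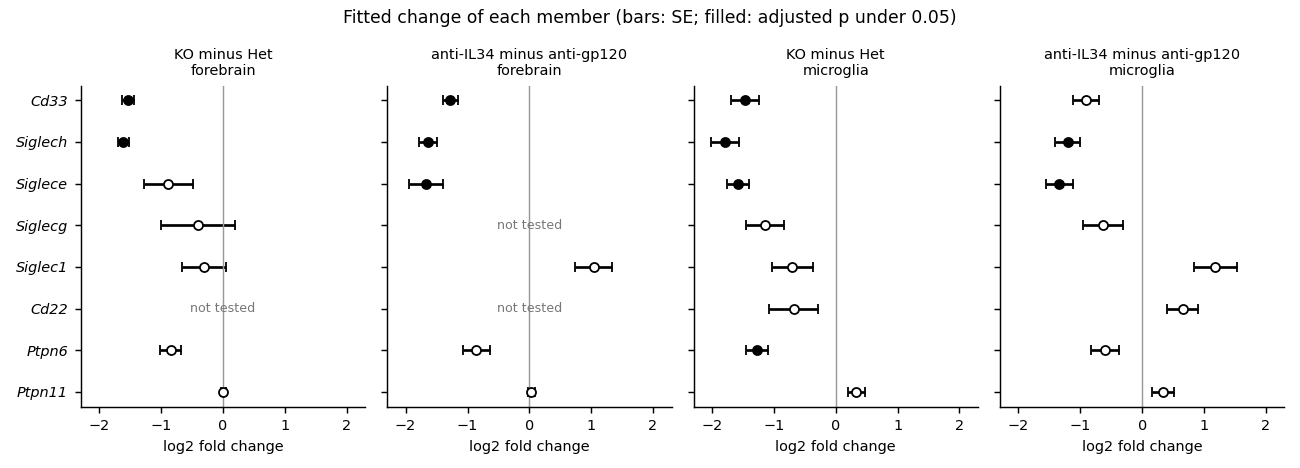
Fitted log2 fold change (x axis) of each gene (y axis) in the 4 comparisons of arms, with bars of 1 SE; filled points have an adjusted p under 0.05. Cd33, Siglech and Siglece lie left of 0 in all 4 panels, Ptpn11 lies near 0 in forebrain, and Siglec1 lies right of 0 in both anti-IL34 panels and left of 0 in both KO panels.

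Differences between tissues and between experiments were tested directly. As to tissue, no member passed in the genotype experiment, where 2.98% of 20107 genes did, or in the antibody experiment, where 0.0924% of 18399 did. Both tissues come from the same animals, and with the animal as a block 0 genes and 0 members passed in either experiment. For Cd33 the microglia effect of the deletion differed from the forebrain effect by 0.09 ± 0.23 on the log2 scale, with a 95% interval from -0.42 to 0.61. For Siglech it differed by -0.15 ± 0.24, from -0.68 to 0.39. At an unadjusted p under 0.05 the count was 1 member in the genotype experiment and 0 in the antibody experiment. The member was Ptpn11, at 0.36 ± 0.12 (adjusted p = 0.0939). Over all genes the count was 6242 of 20107 in the genotype experiment and 3890 of 18399 in the antibody experiment. With DESeq2, fitted without the block, Ptpn11 passed in the former (0.0052; 0.148 by edgeR with the block), and 0 members did in the latter. As to experiment, again no member passed by edgeR: 0.0101% of 19724 genes did in forebrain and 0% of 18732 did in microglia. The deletion effect less the antibody effect was -0.26 ± 0.15 for Cd33 and 0.02 ± 0.20 for Siglech in forebrain, and -0.55 ± 0.31 and -0.58 ± 0.31 in microglia. Those intervals, from -1.22 to 0.12 for Cd33 in microglia, leave room for differences in size. At an unadjusted p under 0.05 there was 1 member in forebrain, Siglec1, and 2 in microglia, Siglec1 and Cd22. Over all genes 605 of 19724 in forebrain and 740 of 18732 in microglia had such a p. DESeq2 called 0 members in each tissue.

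Since whole-library levels move with how much microglial RNA a library holds, each member was also set against the geometric mean of 9 widely expressed microglial genes, among them C1qa, C1qb, C1qc, Ctss, Tyrobp, Aif1, Cd68 and Laptm5. That mean was itself lower without IL-34, at 9.09 ± 0.731 CPM in Het and 4.26 ± 0.225 CPM in KO forebrain, and at 543 ± 133 and 204 ± 10.2 CPM in microglia. In the antibody experiment it was at 17.6 ± 2.95 (anti-gp120) and 9.03 ± 1.72 CPM (anti-IL34) in forebrain and at 625 ± 118 and 374 ± 72.2 CPM in microglia. A gene whose own level stays the same therefore comes out above 100% of control on this scale. Ptpn11, which passed in no comparison of arms by edgeR with all animals, was at 214% (KO forebrain), 330.1% (KO microglia), 202% (anti-IL34 forebrain) and 215% (anti-IL34 microglia), with exact p of 0.0286 (adjusted 0.0653) in the first 3 and 0.0571 (adjusted 0.108) in the last. Relative to it, Siglech was at 70.4% (KO forebrain), 76.3% (KO microglia), 65.3% (anti-IL34 forebrain) and 70.2% (anti-IL34 microglia) of control. In each of these 4 cases all libraries of the arms were apart, with a two-sided exact permutation p of 0.0286, the smallest these group sizes allow, and 0.0653 after adjustment over 32 tests. Siglech thus lay below these genes in all 4, although no ratio passed after that adjustment.

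Cd33 kept closer to the list. It was at 73.3% of control relative to it in KO forebrain (exact p = 0.0286, adjusted 0.0653), 83.4% in anti-IL34 forebrain (exact p = 0.0571, adjusted 0.108), 95.7% in KO microglia (exact p = 0.514, adjusted 0.567) and 87.0% in anti-IL34 microglia (exact p = 0.0286, adjusted 0.0653). Siglece was at 65.6% in anti-IL34 microglia (exact p = 0.0286, adjusted 0.0653) and 87.1% in KO microglia (exact p = 0.257, adjusted 0.343). In forebrain it was at 74.4% with anti-IL34 (exact p = 0.0571, adjusted 0.108) but at 130.3% in KO (exact p = 0.314, adjusted 0.402). Ptpn6 was at 107% and 111% in KO and anti-IL34 microglia, with exact p of 0.171 and 0.229 (adjusted 0.249 and 0.318), and at 118% and 113% in KO and anti-IL34 forebrain (exact p = 0.0857 and 0.4, adjusted 0.137 and 0.492). Siglec1 was at 454% in anti-IL34 forebrain and 412% in anti-IL34 microglia, and Cd22 at 238% and 265%, each with an exact p of 0.0286 (adjusted 0.0653) and no overlap of the arms. The Cd22 values are near those of Ptpn11 and rest in forebrain on 2 to 16 counts per library. By themselves these ratios do not show a rise in level. The mean level of Cd22 in microglia was higher with anti-IL34 (13.95 CPM) than with anti-gp120 (8.84 CPM). That log2 difference of 0.65 ± 0.26 did not pass by edgeR, which leaves a rise in level undecided. In forebrain the level of Cd22 was not tested. In KO forebrain and microglia Siglec1 was at 148% and 157% (exact p = 0.0857 and 0.171, adjusted 0.137 and 0.249) and Cd22 at 80.1% and 182% (exact p = 0.743 and 0.0857, adjusted 0.743 and 0.137). The KO forebrain ratio of Cd22 rests on 0 to 4 counts per KO library. Leaving out 1 animal moved its log2 difference from -0.32 to values between -0.91 and 0.42. Siglecg was at 134% and 119% in KO forebrain and microglia (exact p = 0.714 and 0.457, adjusted 0.737 and 0.522). In anti-IL34 forebrain and microglia it was at 128% and 107% (exact p = 0.457 and 0.657, adjusted 0.522 and 0.701). In forebrain Siglecg rests on 1 to 12 counts per library.

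**Figure D5:**
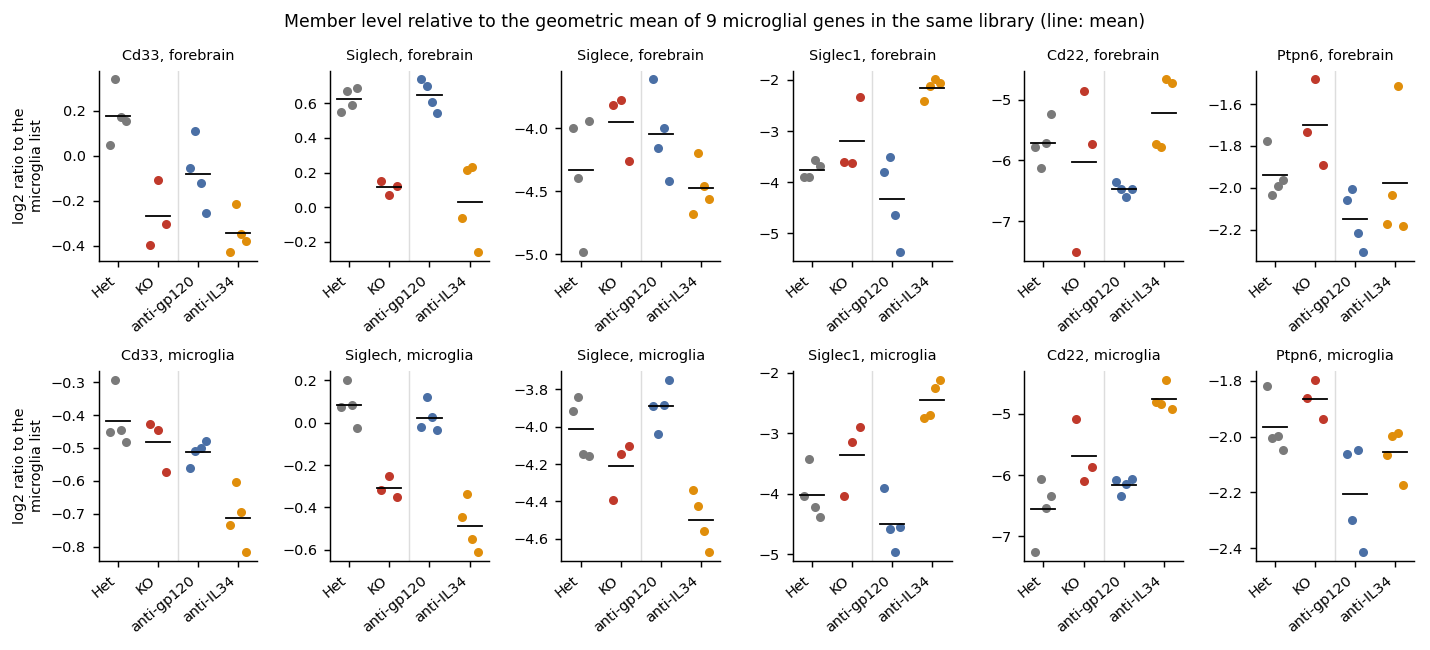
Log2 ratio of a gene's CPM to the geometric mean CPM of 9 microglial genes in the same library (y axis, scaled per panel) by arm (x axis), forebrain above and microglia below; points are libraries and lines are means. Siglech is below its controls in all 4 comparisons, Ptpn6 overlaps in each, and Siglec1 and Cd22 of anti-IL34 libraries lie above their controls in both tissues.

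The other parts of the pathway were read from lists. Of 12 kinases and adaptors that act with ITIM receptors or DAP12, 5 fell in KO forebrain, where 0.615% of all genes did, with a list median of -0.58 against 0.00 over all genes. Inpp5d, the lipid phosphatase SHIP-1, fell by 0.82 ± 0.088 (adjusted p = 0.000387). Lyn, Tyrobp and Syk also fell. In KO microglia 7 of 12 fell, against 5.22% of all genes, with a median of -1.29 against 0.02. Tyrobp, the adaptor of Siglec-H, was among them and fell by 1.26 ± 0.15 (adjusted p = 0.0138). In anti-IL34 forebrain, where 0.525% of all genes fell, 2 of 10 did, Inpp5d by 0.90 ± 0.11 (adjusted p = 0.00265) and Syk by 0.86 ± 0.17 (adjusted p = 0.0482). In anti-IL34 microglia 0 of 12 passed by edgeR, and the median was -0.53 against 0.06. There 7 of 12 had an unadjusted p under 0.05, against 4559 of 17570 genes. Tyrobp is also one of the 9 genes of the ratio above. Of those 9, 7 fell in KO forebrain (median -1.27), 8 in KO microglia (-1.37), 6 in anti-IL34 forebrain (-1.05) and 0 in anti-IL34 microglia (-0.69). Of 13 microglial marker genes 12 (-1.29), 13 (-1.61), 12 (-1.60) and 9 (-1.40) fell, in the same order. The part of microglial RNA as a whole in the list counts was not tested.

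Of the other inhibitory receptors of myeloid cells, 1 of 13 tested fell in KO forebrain, where 0.615% of all genes did, with a list median of -0.17 against 0.00. It was the collagen receptor Lair1, which fell by 0.41 ± 0.082 (adjusted p = 0.0462). In KO microglia 5 of 14 fell, against 5.22% of all genes, with a median of -0.79 against 0.02. Clec4a2 fell by 1.27 ± 0.15 (adjusted p = 0.0136) and Lair1 by 1.33 ± 0.18 (adjusted p = 0.0156), beside Cd200r1, Sirpa (the CD47 receptor) and Fcgr2b. After anti-IL34, 0 of 11 passed by edgeR in forebrain and 0 of 14 in microglia, where 4 and 5 had an unadjusted p under 0.05. Over all genes 833 of 17143 in forebrain and 4559 of 17570 in microglia had such a p. Siglecf, a Siglec of eosinophils and some macrophages, fell by 1.34 ± 0.24 in KO microglia (adjusted p = 0.0280), and its difference was -0.83 ± 0.25 in anti-IL34 microglia (adjusted p = 0.124). Mag, the myelin Siglec and the sixth of the oligodendrocyte markers, passed in no comparison of arms by edgeR. It was nearest in KO forebrain, at -0.29 ± 0.060 (adjusted p = 0.0550).

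On the ligand side, genes for making and attaching sialic acids mostly did not pass. In KO microglia 3 of 24 tested fell, where 5.22% of all genes did, with a list median of -0.02 against 0.02 over all genes. They were the sialyltransferases St3gal5, by 1.11 ± 0.20 (adjusted p = 0.0280), St6galnac4, by 1.23 ± 0.26 (adjusted p = 0.0450), and St3gal6, by 1.23 ± 0.27 (adjusted p = 0.0495). By edgeR 0 of 24 passed in KO forebrain, 0 of 23 in anti-IL34 forebrain and 0 of 24 in anti-IL34 microglia. Of these 4, 0 and 4 had an unadjusted p under 0.05. Over all genes 1441 of 19343, 833 of 17143 and 4559 of 17570 had such a p, in the same order. Sialidases and the ligands Cd24a and Spn passed in no comparison of arms by edgeR, with 0 to 4 at an unadjusted p under 0.05, and Neu1, the lysosomal sialidase, was at -1.21 ± 0.33 in KO microglia (adjusted p = 0.0822).

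Genes with the pattern most like a member's were ranked by the root mean square difference in log2 CPM over the 15 libraries of a tissue, centred within each experiment. In forebrain, where 15540 genes were ranked, the genes nearest to Cd33 were Csf1r (0.0902), Cx3cr1 (0.0977) and Hpgds (0.123), against a spread of Cd33 itself of 0.698. Those nearest to Siglech were Cx3cr1 (0.141), Laptm5 (0.173) and Cd33 (0.180). In microglia Cd33 lay nearest to Nckap1l (0.0592), Vav1 (0.0712) and Cyth4 (0.0757), and Siglech to Parvg (0.0772), Selplg (0.0788) and Rasal3 (0.101). Siglece lay nearest to Gm33699, Parvg and Abcc3. Siglec1 had other neighbours: Gbp3, Rnf213 and Rigi in forebrain and Ddx60 (0.188), Rigi (0.227) and Parp14 (0.234) in microglia. Cd22 lay nearest to the class I genes H2-D1 (0.227), H2-K1 (0.231) and H2-Q4 (0.251) in microglia, and Ptpn6 to Ighm (0.0931), Dok1 (0.105) and Unc93b1 (0.110). Siglecg lay nearest to Jak3 (0.188), and Ptpn11 to Atp5f1b (0.0523), Sdha and Nf2. These values describe likeness across libraries that share depth and arm.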

How the data were processed

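RNA of 15 mice was measured in 30 libraries prepared for low input with SMART-Seq v4 chemistry, as the labels' protocols state. The submitters' processing notes name STAR 2.7.5c, featureCounts 1.6.3, R 4.4.0 and GRCm38, and strand use is not given in the sources used here. The authors deposited unnormalised counts per gene and a Length that is another kind of value, equal to the gene span, introns included, for 51183 of 51498 matched identifiers, so intronic reads may be counted. The authors' deposited TPM values rest on those lengths and were not tested. The deposited sample sheet, whose animal number is another kind of value, matched the labels for 30 libraries. Columns without labels, 6 per table, were not used.

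Tests on counts used edgeR 4.0.16 under R 4.3.3 (quasi-likelihood F test, TMM, default filter, sex as a covariate, Benjamini-Hochberg at 0.05 over all genes tested), within 1 tissue and 1 experiment. SE is the log2 fold change over the square root of F. Tissues were compared in the 8 control animals. Scripts were tested on simulated data. CPM values are TMM-scaled, and levels between genes use merged exon length. Ratios to 9 microglial genes used an exact permutation test after 0.5 was added to counts. Alternatives were RLE size factors, no filter, DESeq2 1.42.0, no sex terms, a fit over 15 libraries, the animal as a block, and leaving out each animal. Libraries of an animal share its number, and the block rests on that number. Their deviations from group means correlated with a median of 0.226 (0.0927 to 0.464). Libraries of different animals were not correlated for comparison, so these values do not test the pairing. Over 42 pairs of replicates chi-square per degree of freedom was at least 5.84, so no library was counted as a repeat. Total counts of 15.1 to 75.2 M leave counting error small except near 1 CPM, and the number of animals limits precision.

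Named were the 8 members, the 2 genes of each list with the smallest p in each direction, list members that passed where fewer than 5 did, and the 3 nearest neighbours of members at 1 CPM or more. A few genes that belong to these lists are counted but not reported here by name. The members and lists were chosen with earlier results of these data known.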

Additional observations from a re-analysis of the deposited data

Results flagged for a closer look

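Within groups of 4 libraries, 48 were examined for a library apart from the others, and 3 stood out, where chance gives about 1 in 20. Cd33 in anti-gp120 forebrain of animal 15 was at 14.5 CPM against 17.0 to 17.4 CPM in the other controls. Siglech in the same library was at 21.8 CPM against 28.7 to 29.7 CPM. Siglecg in anti-IL34 forebrain of animal 10 was at 0.165 CPM against 0.0460 to 0.0646 CPM, from 7 counts against 1 count in each of the others.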

How the results depend on the processing

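Over 924 alternative fits of members, 811 kept direction and side of the threshold, 40 missed it, 33 newly passed it and 40 changed sign, the latter all in values that were not called. The Cd33 and Siglech calls in forebrain held in every alternative run; the microglial calls did not, as given with each gene, and the cause was not tested. With animals as a replicate block, which pairs libraries by animal number, tissue differences were called for 0 genes in both experiments and for 0 members. Without the block 599 (deletion) and 17 (antibody) genes were called. The contrast of tissues was called for 16529 genes with 7 members, against 16663 and 7 without the block. The block was used in these 3 tests, where it changed the call of no member.

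The number of genes called over the whole table was 120 in KO forebrain (381 without the filter), 976 in KO microglia (1993 without the filter, 3887 with DESeq2, 2189 without sex, 2734 over 15 libraries), 123 in anti-IL34 forebrain (349 without the filter, 198 with DESeq2, 204 over 15 libraries) and 110 in anti-IL34 microglia (819 without the filter, 2015 with DESeq2, 983 without sex, 988 over 15 libraries). Members called in anti-IL34 forebrain were 5 without the filter, and in anti-IL34 microglia 0 with RLE size factors and 4 without the filter or with DESeq2. Tissue differences of the deletion effect were called for 1569 genes without the filter, 3635 with DESeq2 and 2400 without sex, with 1 member (Ptpn11) in each of the last pair. Those of the antibody effect were called for 48 genes with RLE, 1352 without the filter, 1092 with DESeq2 and 222 without sex. Deletion and antibody effects differed in 114 forebrain genes without the filter, 28 with DESeq2 and 4 without sex, and in microglia in 1 without the filter and 35 with DESeq2. Without sex that difference changed sign for Siglech (-0.0077) and Ptpn6 (-0.091) in forebrain and for Ptpn11 (-0.0083) in microglia. Of 272 alternative ratios to the microglial list, 1 moved by more than the spread.

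Leaving out 1 animal gave 55 to 117 genes in KO forebrain, 0 to 5756 in KO microglia with 0 to 6 members, 25 to 126 in anti-IL34 forebrain and 0 to 6905 in anti-IL34 microglia with 0 to 7 members. Tissue differences ran from 0 to 5688 genes (deletion) and 0 to 5565 (antibody), each with 0 to 1 member, and differences between experiments from 2 to 33 in forebrain and 0 to 5 in microglia. Log2 values crossed 0 for Siglec1 (-1.06 to 0.11) and Ptpn11 (-0.0073 to 0.011) in KO forebrain and Ptpn11 between tissues (-0.053 to 0.078). They did so for the tissue difference of the deletion in Cd33 (-0.033 to 0.28), Siglech (-0.30 to 0.039), Siglec1 (-0.83 to 0.068) and Cd22 (-0.074 to 1.15), and of the antibody in Siglecg (-0.76 to 0.78), Siglec1 (-0.079 to 0.40) and Ptpn6 (-0.21 to 0.46). Between experiments they did so for Siglech (-0.049 to 0.18) and Ptpn6 (-0.13 to 0.24) in forebrain and Siglece (-0.37 to 0.0094) and Ptpn11 (-0.17 to 0.13) in microglia.

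Depth limits Siglecg and Cd22 in forebrain, with at most 12 and 16 counts per library.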

Other observations

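The 308.8 kb of chromosome 7 from Siglecf to Siglece holds 23 annotated genes in all, among them zinc-finger genes that are no Siglecs. In KO microglia Zfp658 fell by 1.25 ± 0.12 on the log2 scale (edgeR adjusted p = 0.0136), beside Siglecf, Cd33 and Siglece. In KO forebrain its difference was 0.06 ± 0.08 (adjusted p = 0.919), in anti-IL34 forebrain -0.0025 ± 0.13 (adjusted p = 0.99935), and in anti-IL34 microglia -0.71 ± 0.22 (adjusted p = 0.132). Iglon5, in the same interval, was at 0.85 ± 0.37 in KO microglia (adjusted p = 0.160). These genes were named after their values were seen.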
